A study of Mus musculus with 17 samples.

Results

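Doxorubicin-treated MCA205 tumours were compared with saline-treated tumours 2 days after the injection, on 5 of the 17 arrays of the series. The arrays were chosen by their titles, which gave 2 day 2 arrays of doxorubicin (DX) and 3 day 2 arrays of phosphate-buffered saline (PBS). MCA205 is a transplantable mouse fibrosarcoma line. It was grown in wild-type C57BL/6 mice until tumours were palpable (25 to 45 mm2), and DX or PBS was injected into the tumour itself. Total RNA of the whole tumour, taken 2 days later, was biotin-labelled and hybridised to 1-colour Illumina BeadChip arrays, so every value covers tumour cells, infiltrating cells and any tissue removed with them. All groups used here carried the same tumour line on the same genotype and differed in the injected agent and, where day 7 is used, in the day. The labels do not say that arrays came from separate animals, so the p-values measure only the spread between these samples, which may be technical.

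Doxorubicin is an anthracycline that enters DNA and traps type II topoisomerases on it, leaving double-strand breaks. Type I interferons, among them interferon beta, bind the receptor IFNAR. Transcription factors that include STAT2 and IRF9 then bind a DNA element called the interferon-stimulated response element and turn on a set of antiviral genes. Interferons are made when sensors detect nucleic acids out of place, and IRF7 raises their production further.

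Of the gene lists described here, that of the type I interferon response held the most genes called higher after DX, and the promoters of its members carried the letters of the response element at a higher share than all tested genes. The core of the element was searched as 2 copies of GAAA with any 2 bases between them, or on the other strand 2 copies of TTTC likewise, from 250 bases before to 50 bases after each gene's start in RefSeq (assembly GRCm38.p6). It was present in 3.44% of the 32851 windows in the table and in 318 of the 8132 tested genes that matched it (3.91%). Of the 43 genes called higher that had a window, 17 held it (39.5%), and of the 22 members of the type I interferon list that had one, 14 held it (63.6%). None of the 7 matched genes called lower held it. A match is a description of letters and not a bound site, and overlapping copies were counted separately. The 250 bases before the start are shown for 5 genes called higher that differ in how many copies they hold and where, with the matches in capitals. Isg15 lies on the minus strand at chr4:156200819-156201068 and holds 3 overlapping copies starting 78, 72 and 66 bases before the start. Ifit3, on the plus strand at chr19:34583279-34583528, holds 2 separate copies at 156 and 122 bases. Rsad2 (minus strand, chr12:26456453-26456702) holds 1 at 120 bases, Cxcl10 (minus strand, chr5:92348890-92349139) 1 at 213 bases and Ifi205 (minus strand, chr1:174031756-174032005) 1 at 134 bases. Ifi205 has a further copy in the 50 bases after the start, which are not shown.
Isg15: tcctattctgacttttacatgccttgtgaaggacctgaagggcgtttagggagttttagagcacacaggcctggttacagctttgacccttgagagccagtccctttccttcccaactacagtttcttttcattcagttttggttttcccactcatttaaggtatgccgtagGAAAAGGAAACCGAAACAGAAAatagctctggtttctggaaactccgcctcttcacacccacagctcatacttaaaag
Ifit3: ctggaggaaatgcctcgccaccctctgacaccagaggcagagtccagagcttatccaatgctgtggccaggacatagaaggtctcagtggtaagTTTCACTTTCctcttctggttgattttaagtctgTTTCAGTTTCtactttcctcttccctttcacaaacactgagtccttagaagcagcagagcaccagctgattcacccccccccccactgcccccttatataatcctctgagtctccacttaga
Rsad2: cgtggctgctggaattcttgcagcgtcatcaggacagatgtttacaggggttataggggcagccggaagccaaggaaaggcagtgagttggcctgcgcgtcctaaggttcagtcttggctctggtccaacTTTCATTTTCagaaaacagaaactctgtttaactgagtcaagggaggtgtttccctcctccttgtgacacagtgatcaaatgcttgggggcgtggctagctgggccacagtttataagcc
Cxcl10: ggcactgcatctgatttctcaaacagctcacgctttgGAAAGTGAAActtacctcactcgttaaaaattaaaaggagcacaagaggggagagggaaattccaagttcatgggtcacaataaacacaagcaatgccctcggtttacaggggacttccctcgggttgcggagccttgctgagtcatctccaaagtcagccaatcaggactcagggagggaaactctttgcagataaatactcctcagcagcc
Ifi205: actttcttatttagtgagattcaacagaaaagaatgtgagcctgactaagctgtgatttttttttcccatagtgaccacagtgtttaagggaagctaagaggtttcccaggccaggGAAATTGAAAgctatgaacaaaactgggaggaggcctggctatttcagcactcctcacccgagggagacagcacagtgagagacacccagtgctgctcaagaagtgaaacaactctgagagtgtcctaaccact

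The 5 arrays were alike in depth, with a median signal from 118.8 to 135.5 and detection of 14799 to 15568 of the 45281 probes. Across genes, arrays of the same group correlated with r from 0.9871 to 0.9907, and DX with PBS arrays from 0.9846 to 0.9878. DX replicate 1 was on BeadChip 1 and PBS replicate 1 on BeadChip 2, each without the other treatment on day 2, and PBS replicates 2 and 3 shared BeadChip 3 with DX replicate 2. Of the 18 measured markers of fibroblasts and matrix, 18 were detected on all 5 arrays, as were 19 of 21 markers of monocytes and macrophages, so the defining markers of the labelled tissue were present. Skeletal muscle and skin markers varied between arrays of the same group. Acta1, skeletal muscle actin, had log2 signals of 9.85, 4.78 and 8.27 in PBS and 8.70 and 9.51 in DX. Myl1, which encodes a fast-muscle myosin light chain, had 10.15, 4.71 and 8.26 in PBS and 8.48 and 9.87 in DX. Krt14, a keratin of the basal epidermis, had 5.87, 6.09 and 10.22 in PBS and 7.00 and 5.48 in DX. PBS replicate 2 was therefore low in muscle transcripts and PBS replicate 3 high in Krt14. The log2 of the summed signal of the 11 skin genes, in which the brightest count most, was 9.64, 9.64 and 11.89 in PBS. In DX it was 9.90 and 9.55. Of the 11, 3 were detected on all 5 arrays and 4 (Ivl, Krt1, Krt5 and Sbsn) on none. None of the 18 muscle and 11 skin genes was called in limma, and none had an unadjusted p under 0.05.

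After DX, 66 of 12451 tested genes were called higher (0.53%) and 10 were called lower (0.0803%) at an adjusted p under 0.05 in limma, 76 in all (0.61%). Tested probe by probe, 84 of 17674 probes were called higher (0.475%) and 17 lower (0.0962%). A gene here is represented by its brightest detected probe, and 55 of the 66 and 8 of the 10 had a gene symbol. The median difference of the 66 was 1.28 on the log2 scale, with a range from 0.68 to 1.95, against -0.02 over all genes. On all 66 genes both DX arrays lay above all 3 PBS arrays, and on all 10 both lay below. That kind of separation was common, with 12.2% of all genes separated upwards and 15.9% downwards. An unadjusted p under 0.05 in limma was reached by 860 of the 12451 genes, the share against which such counts in single lists stand. A difference of 1 or more on the log2 scale was reached by 90 genes upwards, 49 of them called, and by 14 downwards, 4 of them called. In whole tumours, a gene that is higher in each cell and a gene whose cells are more numerous cannot be told apart.

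The calls depended on few arrays. Without DX replicate 1, 11 of the 76 calls remained, 7 of them with a symbol (Ifit2, Ifi205, Usp18, Ifit3, Trim30a, Irf7 and 3110040M04Rik), and the median difference of the 66 was 1.06. The count of genes called higher was then 11, and it was 42 without PBS replicate 2 and 34 without PBS replicate 3. The count called lower was 0 without DX replicate 1, 4 without DX replicate 2, 4 without PBS replicate 2 and 2 without PBS replicate 3. At an unadjusted p under 0.05, limma gave 421 genes higher and 439 lower with all arrays, and 221 and 222 without DX replicate 1. With the BeadChip as a fixed block, 50 of the 76 calls remained, and with it as a random block all 76 did. Elsewhere in this report, the BeadChip as a block means the fixed block. Within BeadChip 3 alone, where 1 DX array meets 2 PBS arrays, the median of the 66 was 1.10.

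**Figure D1:**
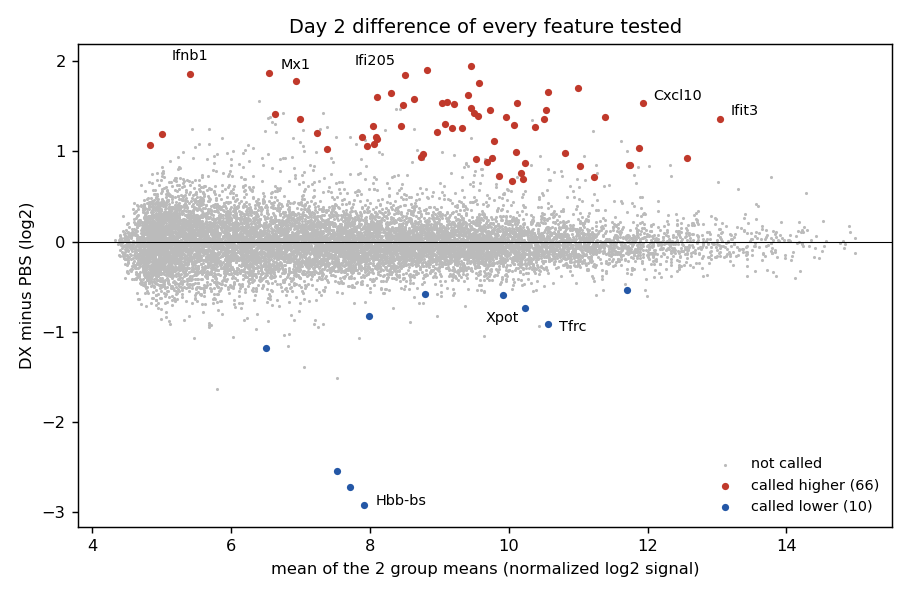
Difference between the DX and PBS group means on day 2 (vertical axis, log2) against the mean of both group means (horizontal axis, normalized log2 signal), 1 point for each of the 12451 genes, with the 66 genes called higher in red and the 10 called lower in blue. The red points lie between 0.68 and 1.95 over most of the signal range, and the 3 lowest blue points are haemoglobin genes.

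The start of the interferon pathway was represented by 19 measured genes for nucleic acid sensing and type I interferon. 4 of them were called higher and 0 lower, with a median difference of 0.80. Of the 19, 11 did not overlap in the upward direction, as was the case for 12.2% of all genes. The list's median was 0.30 on signals without background correction, 0.31 in the authors' processed table and 0.40 within BeadChip 3, with 4 called in each of the former. Ifnb1, which encodes interferon beta, had log2 signals of 4.67, 4.38 and 4.38 in PBS and 7.01 and 5.66 in DX. It was not above background on any PBS array and was detected on both DX arrays, which made it at least 2.28-fold higher (limma adjusted p = 0.0186). The call was lost with the BeadChip as a block (adjusted p = 0.071) and without DX replicate 1 (adjusted p = 0.903), the upper end of a range from 0.00187 over 27 alternatives. Irf7, the transcription factor that raises interferon production, had 8.53, 8.61 and 8.65 in PBS and 10.53 and 9.93 in DX, a 3.10-fold rise that remained called in 27 of 27 alternatives (log2 1.63 ± 0.20 SE, limma adjusted p = 3.27e-04). The DX arrays lay well clear of the PBS arrays, with replicate 1 the higher. Ifi205, a nuclear protein of the AIM2-like family, had 7.44, 7.71 and 7.61 in PBS and 9.48 and 9.37 in DX. It rose 3.58-fold (1.84 ± 0.21 SE, limma adjusted p = 1.53e-04), with both DX arrays nearly equal. Its relative Mndal rose too (6.34, 6.03 and 6.59 against 7.96 and 7.39, log2 1.35 ± 0.23 SE, limma adjusted p = 0.0065), and probes of this gene cluster may share targets. Trex1, the exonuclease that removes DNA from the cytosol, rose 2.11-fold, from 7.57, 7.21 and 7.81 to 8.89 and 8.32 (limma adjusted p = 0.016).

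Of 36 listed genes of the type I interferon response, 31 were measured, and 18 were called higher and 0 lower. All 31 had both DX arrays above all 3 PBS arrays, as did 12.2% of all genes. An unadjusted p under 0.05 was reached by 30, and the median difference was 1.36, against -0.02 over all genes. On signals without background correction the list's median was 0.90. 18 of the 66 genes called higher belonged to this list and 48 did not. The list's count was 6 without DX replicate 1 and 13 to 17 without any other 1 of the day 2 arrays, and 15 with the BeadChip as a block. Its median was 1.11 within BeadChip 3.

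Ifit2, an RNA-binding antiviral protein, had log2 signals of 9.92, 9.90 and 9.60 in PBS and 11.49 and 11.03 in DX. It rose 2.74-fold (log2 1.45 ± 0.15 SE, limma adjusted p = 1.09e-04) and remained called in 27 of 27 alternatives. Its relative Ifit3 had 12.37, 12.52 and 12.18 in PBS and 13.98 and 13.46 in DX (2.57-fold, limma adjusted p = 3.27e-04). Both genes were separated between the groups by more than the spread of either.

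The ISG15 system was covered by 3 called genes. Isg15, a ubiquitin-like protein that is attached to other proteins, had 9.44, 9.43 and 9.19 in PBS and 11.11 and 10.66 in DX. It rose 2.89-fold (log2 1.53 ± 0.22 SE, limma adjusted p = 0.00117). Usp18, which removes ISG15 and restrains the interferon receptor, had 10.59, 10.81 and 10.70 in PBS and 12.21 and 11.94 in DX (2.60-fold, limma adjusted p = 2.29e-04). Uba7, the enzyme that activates ISG15, was in no list and rose from 9.86, 9.74 and 9.81 to 10.78 and 10.35 (1.70-fold, limma adjusted p = 0.0322). Of the 3, Isg15 lost its call without DX replicate 1 (adjusted p = 0.117, the upper end of a range from 3.18e-05) and Uba7 also with the BeadChip as a block (adjusted p = 0.087, within a range from 0.00267 to 0.991).

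Genes known from the antiviral response were also called. Mx1, a gene of an interferon-induced GTPase family, was dim in PBS (5.42, 5.66 and 5.77) and reached 7.70 and 7.27 in DX, a 3.66-fold rise (limma adjusted p = 0.00545). Mx2, its paralogue, rose 2.85-fold, from 7.70, 7.80 and 7.67 to 9.39 and 9.08 (limma adjusted p = 5.98e-04). Rsad2, or viperin, which makes a chain-terminating nucleotide, had 10.04, 10.27 and 10.16 in PBS and 12.29 and 11.42 in DX (3.25-fold, limma adjusted p = 0.00111). Cmpk2, a nucleotide kinase encoded beside it, had 8.57, 8.85 and 8.65 against 10.62 and 10.26 (3.37-fold). In all 4 genes replicate 1 was the brighter DX array.

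Oligoadenylate synthetases make the second messenger that activates RNase L. Oas2 rose by 1.48 on the log2 scale (8.71, 8.65 and 8.77 against 10.53 and 9.85) and Oas1g by 1.38 (9.35, 9.19 and 9.28 against 10.91 and 10.39). Oasl1, a synthetase-like relative that does not make this messenger, rose by 1.55 (8.26, 8.65 and 8.08 against 10.25 and 9.51). Oas1g has near-identical neighbours whose transcripts its probe may share. The RNA sensor relative Dhx58 rose by 1.53, the E3 ligase Trim30a by 1.36, Phf11a by 1.58 and Ifi35 by 1.03. Phf11a and the separately measured Phf11d (1.43) are close copies and are not counted as independent. Stat2, a subunit of the factor that binds the response element, rose 2.24-fold, from 7.30, 7.59 and 7.62 to 8.99 and 8.35 (limma adjusted p = 0.0258). Of these, Oas2, Phf11a, Ifi35 and Stat2 were not called with the BeadChip as a block.

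**Figure D2:**
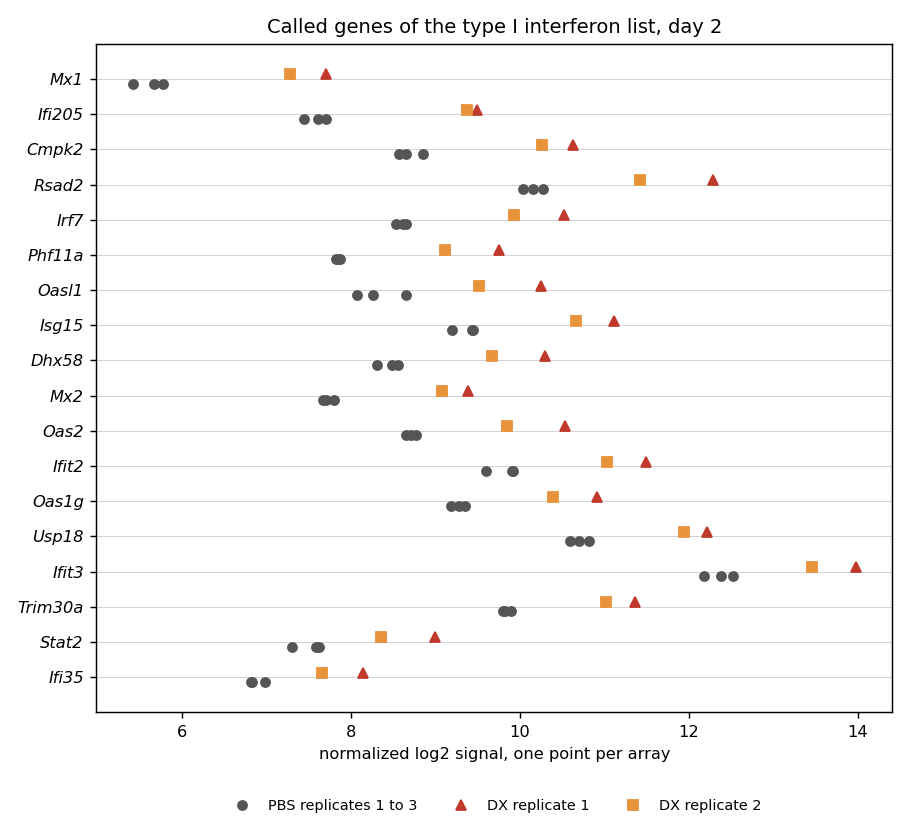
Normalized log2 signal (horizontal axis) of the 18 called genes of the type I interferon list on each of the 5 day 2 arrays, with PBS replicates as grey circles, DX replicate 1 as red triangles and DX replicate 2 as orange squares. On each of the 18 genes both DX arrays lie to the right of all 3 PBS arrays, and DX replicate 1 lies to the right of DX replicate 2.

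DX replicate 1 was above DX replicate 2 on 63 of the 66 genes called higher, by a median of 0.43 on the log2 scale. In the interferon list it was above on 30 of 31, by a median of 0.50. Over all genes it was above on 50.4%, with a median of 0.00. The arrays were on different BeadChips, so the tumour, its processing and the BeadChip cannot be told apart for this difference.

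Of the 55 named genes called higher, 28 were in at least 1 list and 27 in none, and several of the latter are also known as interferon-induced. Samd9l, which restrains translation in infected cells, had 12.09, 12.16 and 12.04 in PBS and 13.15 and 12.90 in DX and rose 1.90-fold (limma adjusted p = 0.00167). The helicase Helz2 rose 1.96-fold (8.33, 8.30 and 8.22 against 9.36 and 9.15), Znfx1, a helicase that senses viral RNA, 1.90-fold (9.38, 9.16 and 9.35 against 10.45 and 9.98) and Trafd1, a zinc finger protein that limits innate signalling, 1.79-fold (10.75, 10.61 and 10.48 against 11.57 and 11.34). Pml, the scaffold of PML nuclear bodies, rose 1.60-fold (9.75, 9.68 and 9.72 against 10.58 and 10.21) and Daxx, a histone chaperone, 1.99-fold (9.62, 9.63 and 9.57 against 10.86 and 10.34, limma adjusted p = 0.00282).

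Gm12250, an immunity-related GTPase, rose 3.03-fold, from 7.64, 7.02 and 7.26 to 9.09 and 8.72 (limma adjusted p = 0.0216). Apol9b and Apol9a, near-identical apolipoprotein L genes whose probes may share targets, rose by 1.40 and 1.11 on the log2 scale. Gm4951 (1.31), Csprs (1.26), Trim34a (1.20), Dtx3l (0.94) and Nt5c3 (0.73) rose too. For Dtx3l, Aftph (0.70) and H2-Q5 (0.85), 1 other detected probe of the gene differed in the opposite direction, and 27 of the 30 called genes with several probes had no such probe. With the BeadChip as a block Apol9a, Apol9b, Gm4951, Trim34a, Nt5c3, Aftph and H2-Q5 were not called.

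Further genes outside the lists were called higher. Agrn, a heparan sulphate proteoglycan of basement membranes, had 10.77, 10.92 and 10.93 in PBS and 11.61 and 11.57 in DX, with nearly equal DX arrays (1.65-fold, limma adjusted p = 0.00282). Gpnmb, a transmembrane glycoprotein of macrophages and pigment cells, rose 2.32-fold (8.13, 8.65 and 8.30 against 9.75 and 9.39, limma adjusted p = 0.00807). Cd69, an early activation marker of lymphocytes, rose 2.19-fold (7.49, 7.49 and 7.63 against 8.81 and 8.54, limma adjusted p = 0.0346) but was not called with the BeadChip as a block. Plekha4 rose 2.23-fold, Lgals3bp 1.80-fold and the amylase gene Amy2a5 2.09-fold. The remaining members, 3110040M04Rik and Pramel37, were detected on both DX arrays and on no PBS array, at least 1.38-fold and at least 1.17-fold higher. Like Cd69, Lgals3bp, Amy2a5 and Pramel37 were not called with the BeadChip as a block. In all, 63 genes were detected on both DX arrays and no PBS array, 3 of them called, and 46 on all PBS arrays and no DX array, 0 of them called.

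Genes that interferon gamma induces most strongly were measured through 10 GTPases. All 10 had both DX arrays above all PBS arrays, as did 12.2% of all genes. Their median difference was 0.85, 8 had an unadjusted p under 0.05 and 1 was called. That gene was Tgtp1 (7.26, 7.61 and 7.33 in PBS, 8.64 and 8.73 in DX, 2.43-fold, limma adjusted p = 0.0443), which cannot be told from its copy Tgtp2 and was not called with the BeadChip as a block (adjusted p = 0.0611, within a range from 0.00117 to 0.57). An immunity-related GTPase outside this list, Gm12250, was called too (log2 difference 1.60, limma adjusted p = 0.0216). Gbp5, a guanylate-binding protein, had 7.42, 6.93 and 7.05 in PBS and 8.64 and 7.95 in DX (log2 difference 1.16, limma adjusted p = 0.0603). Ifng itself was detected on 1 PBS and 1 DX array, at 4.54, 4.81 and 5.42 against 5.58 and 4.86.

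Antigen presentation genes were read by class, and the classes were not compared with a test. Of 20 measured class I genes, all 20 had a positive difference, as did 45.9% of all genes, with a median of 0.46, 12 had an unadjusted p under 0.05 and 1 was called. H2-T10, a non-classical class I gene with close relatives, had 9.23, 9.21 and 9.32 in PBS and 10.40 and 9.86 in DX (1.84-fold, limma adjusted p = 0.0406). It was not called with the BeadChip as a block. H2-Q5, a class I gene outside the list, was called too (log2 difference 0.85, limma adjusted p = 0.0337). Its call was also lost with the BeadChip as a block, and its 1 other detected probe differed in the opposite direction. Of 9 class II genes, which display peptides to CD4 T cells, 8 had a negative difference, as did 54.1% of all genes. The median was -0.38, 1 had an unadjusted p under 0.05 and 0 were called in limma. H2-Ab1 had 11.96, 11.17 and 11.73 in PBS and 11.07 and 11.11 in DX (log2 difference -0.54 ± 0.30 SE, limma adjusted p = 0.871), and H2-Eb1 had 10.63, 9.79 and 10.51 against 9.81 and 9.75. PBS replicate 2 was the lowest PBS array for both and lay close to the DX arrays.

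Among immune checkpoint genes 1 of 10 was called. Lgals9, a galectin that binds inhibitory receptors, had 7.86, 7.74 and 7.84 in PBS and 9.29 and 8.90 in DX (2.43-fold, limma adjusted p = 0.0186). Cd274, which encodes PD-L1, had 9.05, 8.86 and 8.75 against 10.48 and 9.58 (log2 difference 1.14, limma adjusted p = 0.0787). Ido1, a tryptophan-degrading enzyme, stood out on DX replicate 1 alone (6.30, 6.01 and 5.65 in PBS, 8.30 and 6.28 in DX, limma adjusted p = 0.589).

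Of the listed chemokines outside the CCR2 axis, Cxcl10 and Ccl4 were called. Cxcl10, the interferon-induced ligand of CXCR3 on T cells, had 11.26, 10.99 and 11.25 in PBS and 12.98 and 12.42 in DX and rose 2.90-fold (limma adjusted p = 0.00167). Cxcl9, a ligand of the same receptor, had 11.59, 11.29 and 10.99 against 11.97 and 11.51, and its groups overlapped (log2 difference 0.45, limma adjusted p = 0.932). Ccl4, a chemokine that attracts monocytes and other leukocytes, rose 2.76-fold, from 9.03, 9.09 and 8.85 to 10.83 and 10.08 (limma adjusted p = 0.00121). Ccl5 had a similar difference and a larger spread between the DX arrays (9.59, 9.81 and 9.58 against 11.44 and 10.58, log2 difference 1.35, limma adjusted p = 0.113).

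The receptor CCR2 and its ligands, which bring monocytes into tissue and which the study is about, gave 0 called genes of 4, with 3 at an unadjusted p under 0.05. The ligands were separated upwards on all arrays, as were 12.2% of all genes. Ccl2 had log2 signals of 9.94, 9.93 and 10.06 in PBS and 11.13 and 10.71 in DX, Ccl7 11.11, 11.27 and 11.24 against 12.34 and 12.08, and Ccl12 9.71, 10.23 and 9.75 against 10.76 and 10.74. Their adjusted p in limma was 0.322, 0.0773 and 0.189. In a fit of the day 2 arrays alone all 3 passed, with adjusted p of 0.00207, 3.87e-04 and 0.0107 and upper ends of 1.00 over the 27 alternatives. Ccr2 itself was near background, at 5.42, 5.78 and 4.87 in PBS and 5.31 and 5.09 in DX, and passed detection on both DX arrays and 2 of the 3 PBS arrays.

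Inflammatory cytokines gave 1 called gene of 13. Il15, which sustains natural killer and memory T cells, had 9.70, 9.33 and 9.24 in PBS and 11.02 and 10.41 in DX (2.45-fold, limma adjusted p = 0.0104). Of 6 neutrophil genes, 0 were called in limma, 3 had an unadjusted p under 0.05 and the median difference was 0.70, against 0.31 in the authors' processed table. Cxcl1, which attracts neutrophils, had 8.77, 9.32 and 8.90 against 10.16 and 9.51 (log2 difference 0.84, limma adjusted p = 0.196). The log2 of the summed signal of the 6 genes, in which the brightest count most, was 9.45 to 9.94 in PBS and 10.13 to 10.71 in DX.

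Few markers of infiltrating cells were called. Of 21 monocyte and macrophage markers 1 was called, and the median difference was -0.10. The log2 of their summed signal was 14.74 to 15.01 in PBS and 14.74 to 14.84 in DX. The called gene was Ly6c1, which with its copy Ly6c2 marks inflammatory monocytes and also some endothelium. It had 9.91, 9.68 and 9.65 in PBS and 11.33 and 10.69 in DX (2.40-fold, limma adjusted p = 0.0443), and the call was lost with the BeadChip as a block (adjusted p = 0.0803, within a range from 0.00172 to 1.00). Fcgr1, the high-affinity receptor for IgG, had 7.53, 7.44 and 7.40 in PBS and 8.28 and 8.14 in DX (log2 difference 0.75, limma adjusted p = 0.23). Of the 21 markers, 3 had both DX arrays above all PBS arrays and 3 had both below, against 12.2% and 15.9% of all genes. Mrc1, the mannose receptor of resident macrophages, had 10.25, 10.59 and 9.67 in PBS and 9.03 and 9.23 in DX, and Csf1r, the growth factor receptor of macrophages, had 9.91, 9.69 and 9.85 against 9.07 and 9.61 (log2 differences -1.04 and -0.48, limma adjusted p = 0.154 and 0.619). Adgre1, or F4/80, overlapped between the groups at 9.79, 10.12 and 9.97 against 9.50 and 10.06.

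T and NK cell markers had a median difference of 0.04, with 0 of 14 called in limma and 1 at an unadjusted p under 0.05. The log2 of their summed signal was 11.97 to 12.11 in PBS and 11.91 to 12.16 in DX. Cd3e, a subunit of the T cell receptor complex, had 5.88, 5.58 and 5.90 in PBS and 5.25 and 5.49 in DX, and its other probe differed in the opposite direction. Il7r, the interleukin-7 receptor and the member with an unadjusted p under 0.05, had 7.18, 7.42 and 7.17 against 7.97 and 7.71 (log2 difference 0.59, limma adjusted p = 0.548). Ptprc, the pan-leukocyte marker CD45, was dim and overlapped (5.87, 5.69 and 5.38 against 5.74 and 6.04). Of 9 dendritic cell and costimulation genes 0 were called in limma, 1 had an unadjusted p under 0.05, and Bst2, which is also in the interferon list, had the largest difference (9.29, 9.47 and 8.84 against 10.33 and 9.90, adjusted p = 0.289). Pecam1 of the endothelium had 7.33, 6.94 and 7.29 against 6.86 and 7.09, and the 16 endothelial markers had a median of -0.15 with 0 called in limma and 0 at an unadjusted p under 0.05. Col1a1, a fibroblast collagen, had 11.28, 11.09 and 11.08 against 10.84 and 11.10, and the median of the 18 fibroblast and matrix genes was 0.08, with 0 called in limma and 1 at an unadjusted p under 0.05.

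The largest differences downwards were in haemoglobin genes. Hbb-bs had log2 signals of 8.96, 9.12 and 10.06 in PBS and 6.77 and 6.16 in DX, a 7.55-fold fall (log2 -2.92 ± 0.49 SE, limma adjusted p = 0.00569). Hbb-bt, a near-identical copy that its probe may share, had 8.70, 8.63 and 9.87 against 6.59 and 6.10 (6.61-fold lower, limma adjusted p = 0.016). The alpha chain gene Hba-a1 had 8.36, 8.52 and 9.52 against 6.79 and 5.72 (5.83-fold lower, limma adjusted p = 0.0226). PBS replicate 3 was the brightest array for all 3 genes, and it was also the array with the high skin keratin Krt14. Of 13 listed red blood cell genes only these 3 were measured. The log2 of their summed signal was 10.28 to 11.42 in PBS and 7.59 to 8.30 in DX. Whether blood held in the tissue at removal has a part in the difference was not tested. The 3 were not called on signals without background correction, where their median was -1.81, in the authors' processed table, where it was -1.83, or when either DX array was left out. With the BeadChip as a block 2 of the 3 were called, and without PBS replicate 3 only 1.

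**Figure D3:**
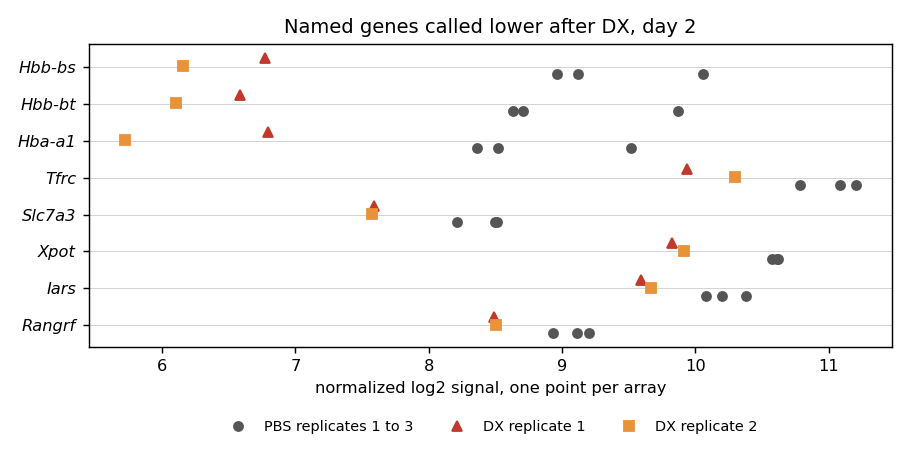
Normalized log2 signal (horizontal axis) of the 8 named genes called lower after DX, on each day 2 array, with PBS replicates as grey circles, DX replicate 1 as red triangles and DX replicate 2 as orange squares. The haemoglobin genes differ by more than 2.5 log2 units, the other 5 genes by 0.58 to 0.91, and both DX arrays lie to the left of all PBS arrays on all 8.

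Tfrc, the transferrin receptor that takes up iron, had 10.78, 11.09 and 11.20 in PBS and 9.94 and 10.30 in DX, a 1.88-fold fall (limma adjusted p = 0.0172). It was the only one of 13 iron handling genes to be called. With the BeadChip as a block its adjusted p was 0.0548, within a range from 0.0011 to 0.696.

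Genes for amino acid supply and the charging of transfer RNA made up 3 of the 8 named genes called lower. Of 31 measured, 17 had both DX arrays below all PBS arrays, as did 15.9% of all genes, and 0 had both above. An unadjusted p under 0.05 in limma was reached by 11, all of them lower, against 439 of 12451 genes lower. The median difference of the list was -0.25. Xpot, which carries transfer RNA out of the nucleus, had 10.58, 10.62 and 10.61 in PBS and 9.83 and 9.91 in DX, with almost no spread in either group (1.66-fold lower, limma adjusted p = 0.00292). Slc7a3, a transporter of arginine and lysine, had 8.21, 8.50 and 8.51 against 7.59 and 7.57 (1.77-fold lower, limma adjusted p = 0.0387), and Iars, which charges transfer RNA with isoleucine, 10.38, 10.20 and 10.08 against 9.59 and 9.67 (1.51-fold lower, limma adjusted p = 0.0443). Shmt2, a mitochondrial serine enzyme, had 8.72, 9.15 and 8.94 against 8.38 and 8.27 (log2 difference -0.62, limma adjusted p = 0.108). With the BeadChip as a block 1 of the 3 calls was left in this list, and without DX replicate 1 none, with 222 genes of all kinds lower at an unadjusted p under 0.05. The letters TGATGNAA, the core of the element that ATF4 binds, or TTNCATCA on the other strand, were in the promoter windows of 10 of the 25 matched list genes (40.0%) and of 2.89% of tested genes. They were also in those of 6 of the 43 genes called higher (14.0%) and 1 of the 7 called lower (14.3%). Rangrf, a regulator of the nuclear transport GTPase Ran, was the eighth named gene called lower (8.93, 9.12 and 9.20 against 8.49 and 8.51, 1.50-fold, limma adjusted p = 0.0356).

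Cholesterol synthesis and ribosome biogenesis held no called genes. All 16 measured genes of cholesterol synthesis had a negative difference, as did 54.1% of all genes. Of the 16, 8 were separated downwards, as were 15.9% of all genes. Their median was -0.26, with 5 at an unadjusted p under 0.05 and 0 called in limma. Sqle, which commits squalene to sterols, had 11.86, 11.92 and 11.94 in PBS and 11.37 and 11.51 in DX (log2 difference -0.47, limma adjusted p = 0.145). Of 22 genes of ribosome biogenesis 19 had a negative difference, with a median of -0.13, 3 at an unadjusted p under 0.05 and 0 called in limma. Rrp12, a ribosome assembly factor, had 9.73, 10.01 and 10.03 against 9.40 and 9.36 (log2 difference -0.55, limma adjusted p = 0.0677).

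Genes tied to the known target and damage response of doxorubicin gave few differences at this time. None of 6 topoisomerase genes was called in limma and 1 had an unadjusted p under 0.05. Top2a, the drug's target in dividing cells, had 11.00, 10.67 and 10.89 in PBS and 10.96 and 10.54 in DX, and Top2b, the form in resting cells, 6.11, 6.04 and 5.81 against 5.62 and 6.51. Both overlapped. Of 25 targets of p53, 0 were called in limma, 2 had an unadjusted p under 0.05 and the median difference was 0.07. Cdkn1a, the cell cycle inhibitor p21, had 8.69, 8.93 and 8.60 in PBS and 10.12 and 9.27 in DX (log2 difference 0.96 ± 0.25 SE, limma adjusted p = 0.132). Its difference was mostly on DX replicate 1, and without DX replicate 2 the adjusted p was 0.027, within a range from 0.0112 to 1.00. Mdm2, which p53 induces and which degrades it, had 9.36, 9.54 and 9.42 against 9.59 and 9.43.

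None of the 19 mitosis genes was called in limma or had an unadjusted p under 0.05, and the median was 0.01. Of the 23 DNA replication genes 0 were called in limma, 2 had an unadjusted p under 0.05 and the median was -0.04. Cdk1, the mitotic kinase, had 10.52, 10.46 and 10.41 in PBS and 10.70 and 10.52 in DX. Of 37 histone genes, many of them near-identical copies, 0 were called in limma, 5 had an unadjusted p under 0.05, and the median was -0.11.

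Cell death and stress lists held 1 called gene. Casp4, the inflammatory caspase-11 that binds bacterial lipopolysaccharide and is itself induced by interferon, rose 1.83-fold from 9.76, 9.80 and 9.85 to 10.82 and 10.54 (limma adjusted p = 0.0085), 1 of 22 apoptosis regulators, whose median was 0.08. The 23 heat shock and ER chaperone genes had a median of 0.09 and the 16 antioxidant genes of NRF2 -0.17, with 0 called in limma in either and 0 and 3 at an unadjusted p under 0.05. Of 21 hypoxia and glycolysis genes 20 had a positive difference, as did 45.9% of all genes, and 17 overlapped between the groups. Only 4 were separated upwards, as were 12.2% of all genes. Their median was 0.16, with 3 at an unadjusted p under 0.05 and 0 called in limma. Among 16 immediate early genes, 0 were called and 6 had an unadjusted p under 0.05 in limma, 4 of the 6 higher and 2 lower, and the median of the list was 0.12. Egr3 had 7.63, 7.24 and 8.36 in PBS and 6.11 and 6.60 in DX (log2 difference -1.39, limma adjusted p = 0.0771). Zfp36, which destabilises cytokine mRNA, had 9.22, 9.31 and 9.33 against 10.22 and 9.49 (log2 difference 0.57, limma adjusted p = 0.403).

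**Figure D4:**
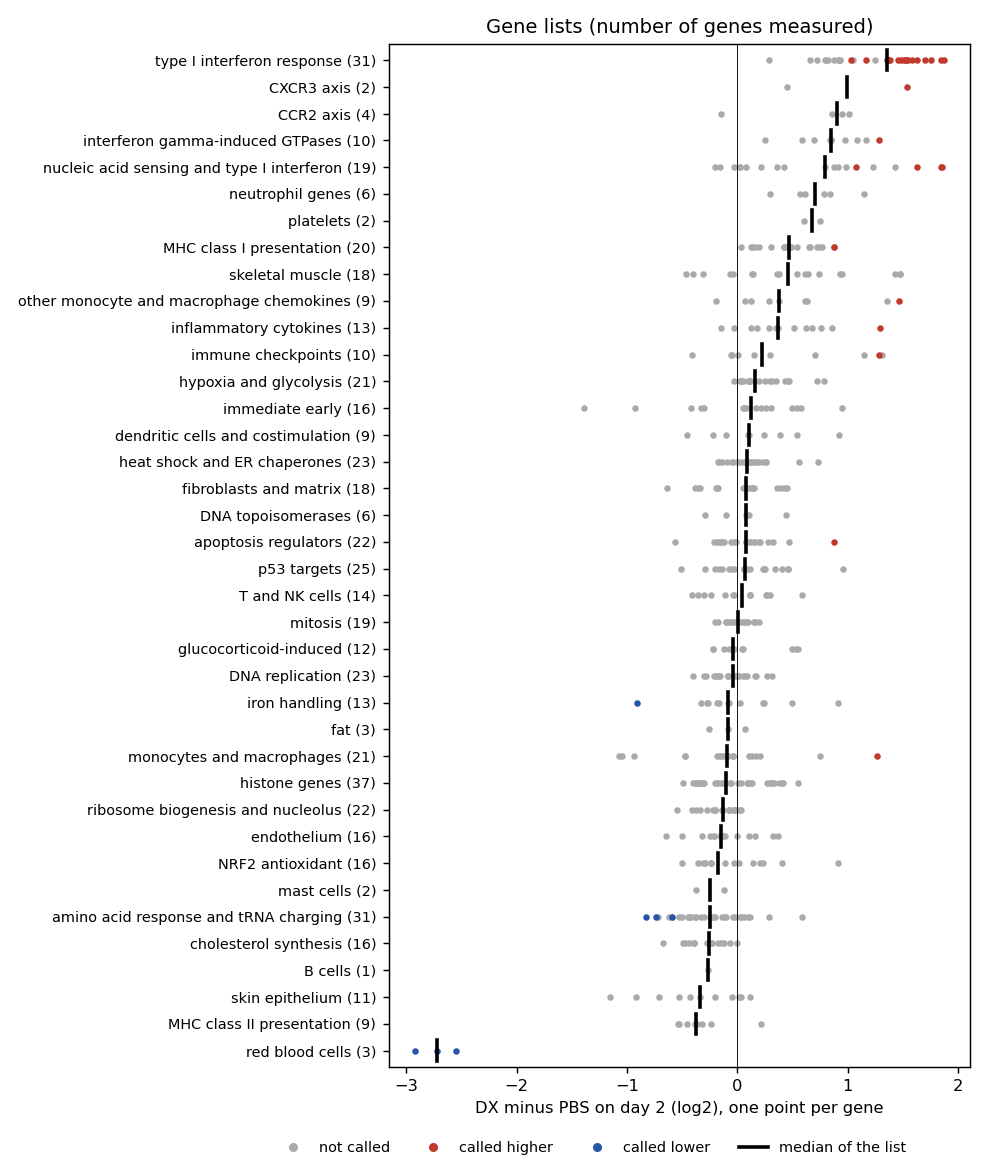
Differences between DX and PBS on day 2 (horizontal axis, log2) of the measured genes of 38 lists, 1 point per gene, ordered by the list median (black bar), with called genes in red (higher) and blue (lower). The type I interferon list stands at the top with a median of 1.36 and 18 red points, red blood cell genes stand at the bottom with a median of -2.72, and most other lists lie around 0.

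The DX difference of day 2 was set against that of day 7, where 6 DX arrays (3 responders and 3 non-responders) met 3 PBS arrays in the same fit. The difference between the days was called for 28 of 12451 genes (0.225%), 14 of them among the 66 called higher on day 2 and 4 among the 10 called lower. The 66 had a median difference of 0.26 on day 7. They were picked for their day 2 difference, and the test between the days uses the same day 2 arrays. That choice by itself favours a smaller difference on day 7, so the counts among called genes give no separate support. Isg15 had a mean of 9.61 in PBS and 9.46 in DX on day 7 (ranges 9.37 to 9.94 and 9.19 to 9.92), so the groups overlapped. Its effect was larger by 1.68 on day 2 (limma adjusted p = 0.0143). Mx1 had 6.02 in PBS and 5.58 in DX on day 7, and its effects differed by 2.31 (limma adjusted p = 0.0168). Oas2 was among the genes whose effects were not called as different, with 8.48 in PBS and 9.54 in DX on day 7 and a difference between effects of 0.43 (limma adjusted p = 0.81).

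The haemoglobin genes stood in opposite directions on the 2 days. Hbb-bs had a mean of 9.14 in PBS and 10.38 in DX on day 7 (ranges 8.87 to 9.33 and 9.25 to 11.45), and the day 2 effect minus the day 7 effect was -4.16 (limma adjusted p = 0.0092). The count of 28 rests on single arrays too, since it was 1 without day 2 DX replicate 1, 13 without day 2 DX replicate 2, 14, 18 and 15 without day 2 PBS replicates 1, 2 and 3, and 12, 17 and 16 without day 7 PBS replicates 1, 2 and 3.

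**Figure D5:**
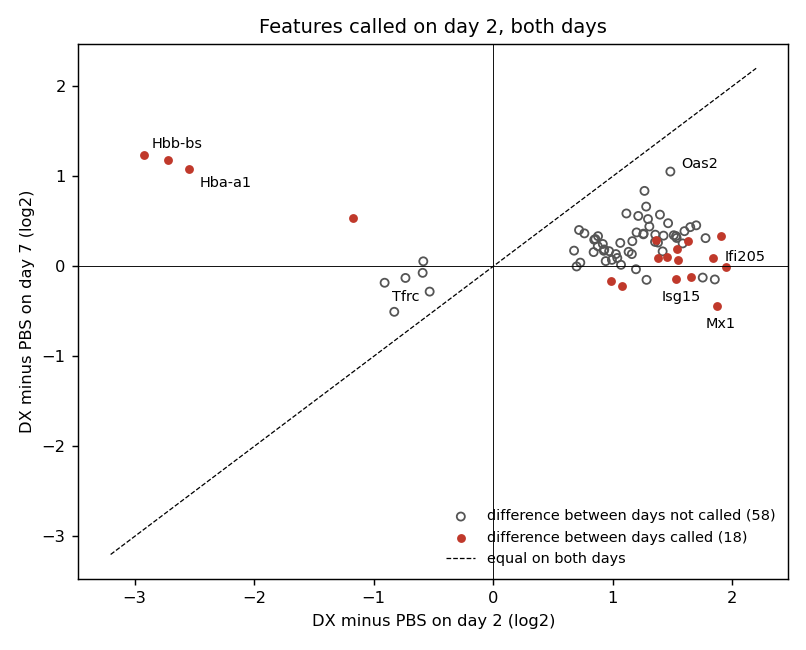
DX minus PBS on day 7 (vertical axis, log2) against DX minus PBS on day 2 (horizontal axis, log2) for the 76 genes called on day 2, with filled red points where the difference between the days was called (18) and open points where it was not (58). Most genes called higher on day 2 lie near 0 on day 7, below the dashed line of equal effects, and the haemoglobin genes lie at the upper left. The genes were picked for their day 2 difference, which by itself favours smaller differences on day 7.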

How the data were processed

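Whole-tumour RNA was measured on 1-colour Illumina BeadChips. Per the file headers, the authors deposited a signal intensity with its detection p-value for every probe on every array, not normalized. The sources used here do not give how they computed the detection p-value. The deposited series table of processed intensity values has columns that each ranked probes most like the array of their own label (17 of 17), with medians of 119.6 or 119.7, so its scale is linear, and its normalization steps are not given in the labels. The submitters' processing notes name GenomeStudio 2011.1.

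Signals were background-corrected with the detection p-values, quantile-normalized and put on the log2 scale with neqc (limma 3.58.1, R 4.3.3, offset 16, which pulls differences of dim probes towards 0). Probes with a detection p under 0.01 on at least 2 of the 17 arrays were kept (17674), the brightest probe stood for each gene, and probes without a symbol stood for themselves, which gave 12451 genes, 10035 with a symbol and 2416 without. The platform annotation gave one symbol to 34885 probes, several to 18 and none to 10378, and of 34807 matched by gene ID to RefSeq (GRCm38.p6) 0 changed their symbol. All 17 arrays entered a single limma model with a variance trend and a mean for each of 6 groups (11 residual and 6.98 prior degrees of freedom), with Benjamini-Hochberg adjustment over all genes and calls at an adjusted p under 0.05. The day 2 groups of 2 and 3 arrays therefore borrow the spread of the other groups, and their number limits the precision. Titles gave the groups and replicate numbers, and array positions the BeadChips. A bound ("at least") sets the DX mean against, per PBS array, the higher of the lowest detected signal and the probe's own. The fit was tested on simulated data.

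The genes named are the called genes with a symbol, up to 4 members of each of 38 textbook lists (called first, then by smallest p) and a fixed set of markers, of which Cd68 was not measured. The comparison, the lists and the members were chosen with earlier results of these data known. Alternatives were other normalizations, filters, fits and blocks, and leaving out each day 2 and day 7 array in turn.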

Additional observations from a re-analysis of the deposited data

Results flagged for a closer look

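Genes with a symbol that were called on day 2, and whose DX effect also differed between day 2 and day 7, are listed here. The test of that difference itself (limma, adjusted over 12451 genes) called 28 genes, 14 of them with a symbol, so the list is not complete. All differences are day 2 effect minus day 7 effect on the log2 scale, with 2 DX and 3 PBS arrays on day 2 and 6 DX and 3 PBS arrays on day 7.

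Interferon-induced genes had the larger effect on day 2, a direction that picking genes by their day 2 call favours. The difference was 2.31 for Mx1, 1.75 for Ifi205, 1.68 for Isg15, 1.48 for Oasl1, 1.35 for Ifit2, 1.35 for Irf7, 1.29 for Trex1, 1.28 for Usp18 and 1.07 for Ifit3. For each of these 9 genes both day 2 DX arrays (2 of 2) exceeded every day 2 PBS array. That held for all 66 genes called higher on day 2, so it adds no separate support. Adjusted p for the difference between days ran from 0.00898 for Ifit2 to 0.0448 for Trex1 in limma.

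Haemoglobin genes differed in the other direction, with -4.16 for Hbb-bs, -3.90 for Hbb-bt and -3.62 for Hba-a1 (adjusted p of 0.0092, 0.0143 and 0.0235 in limma). All 3 were lower on 2 of 2 DX arrays on day 2, as were all 10 genes called lower. On day 7 the mean of the DX arrays lay above that of PBS for each, at 10.38 against 9.14 for Hbb-bs, 10.21 against 9.03 for Hbb-bt and 9.81 against 8.73 for Hba-a1. The probes of the beta chain genes cannot be told apart by target.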

How the results depend on the processing

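The main counts were 66 genes called higher, 10 lower and 28 for the difference between days. Day 2 arrays fitted alone gave 140 higher and 29 lower, array weights 178, 72 and 74, and no variance trend 43, 2 and 8. Testing all kept probes gave 84 higher and 17 lower, no filter on dim probes 5 lower, and the BeadChip as a fixed block 51 higher and 6 lower. The BeadChip as a random block gave 66 higher, 12 lower and 31 for the difference between days. Leaving out 1 array gave 11 to 69 higher, 0 to 12 lower and 1 to 35 for the difference between days, each lowest without day 2 DX replicate 1, when 222 genes were lower at an unadjusted p under 0.05. The count lower was also 6 without day 7 DX responder replicate 2 and 6 without day 7 PBS replicate 1. Day 2 arrays with the same replicate number did not deviate together from their group means (r of 0.012 and 0.013). With 2 DX arrays the DX deviations are mirror images, so both values rest on 1 contrast and cannot exclude a pairing. The fit with the replicate number as a block gave 58 higher, 4 lower and 17 for the difference between days. The authors' processed table gave 71, 7 and 27. The cause of these moves was not tested, except that a left-out array is a smaller group. The haemoglobin calls were lost in the authors' table and on signals without background correction. With 2 DX arrays, 1 on a BeadChip without day 2 PBS, tumour and BeadChip cannot be told apart for that array, and dim genes such as Ccr2 are limited by background.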
